A study of Mus musculus with 6 samples.

Results

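Restriction factors are host proteins that block a step in the life cycle of a virus. The 9 genes described here encode viperin (*Rsad2*), its genomic neighbor *Cmpk2*, tetherin (*Bst2*), 3 interferon-induced transmembrane proteins (*Ifitm1*, *Ifitm2* and *Ifitm3*), the dynamin-like GTPases *Mx1* and *Mx2*, and the cytidine deaminase *Apobec3*. They were chosen by gene symbol in the raw count table, where all 9 were found among 37310 genes. RNA was sequenced from the whole brains of male C57BL/6 mice aged 12 weeks, with 3 libraries per genotype. *Adar1* E861A/E861A *Ifih1*-/- mice (referred to as E861A) are homozygous for a point mutation that abolishes RNA editing by ADAR1, and *Adar1*+/+ *Ifih1*-/- mice (WT) carry normal *Adar1*. Both genotypes lack *Ifih1*, which encodes MDA5, the cytosolic sensor that responds to unedited double-stranded RNA. The comparison therefore asks whether loss of ADAR1 editing alters these transcripts in adult brain when MDA5 is absent, and it holds no mouse with intact MDA5.

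Type I interferon binds IFNAR1 and IFNAR2, and the kinases JAK1 and TYK2 then activate a transcription factor complex that contains IRF9. This complex binds the interferon-stimulated response element (ISRE) in the promoters of antiviral genes. Restriction factors are among the classical genes induced in this way, and brain cells produce them during viral encephalitis. Most laboratory strains, including C57BL/6, carry *Mx1* alleles that do not give a functional protein, so its RNA says nothing of antiviral activity in these mice. No protein was measured here for *Mx2* or the other genes, so their RNA does not show a working protein either.

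The promoters are shown first because most of these genes are known to be induced through the ISRE. RefSeq promoter windows (build GRCm38.p6, 250 bases before to 50 after a start site) were matched for 7 of the 9 genes, *Mx1* and *Mx2* being the exceptions. The ISRE core was searched as GAAANNGAAA on both strands. It was present in a window of 5 of the 7 genes (*Rsad2*, *Bst2*, *Ifitm2*, *Ifitm3* and *Apobec3*). Over all genes it was present in a window of 3.99% of 27025 genes, or in 3.44% of all 32851 windows. *Cmpk2* and *Ifitm1* held no match. *Bst2* and *Ifitm3* each held 2 matches, which in *Bst2* overlap, and *Apobec3* held 1 match in the first of its 2 windows. The core of the gamma-activated sequence, TTCNNNGAA, was found once each in *Bst2* and *Ifitm3*, where it overlaps an ISRE match. Over all genes it was present in a window of 9.55%, or in 8.3% of all windows. A match is a string of letters and does not show a bound site. The 180 bases before the start site are given 5′ to 3′ on the strand of the gene, with ISRE matches in capitals, for the neighbors *Rsad2* and *Cmpk2*, for *Bst2* and for *Ifitm2*. For *Ifitm3* the 27 bases from position 3 to position 29 after the start site are given, since both matches lie there.
Rsad2, chr12:26456453-26456632, minus strand: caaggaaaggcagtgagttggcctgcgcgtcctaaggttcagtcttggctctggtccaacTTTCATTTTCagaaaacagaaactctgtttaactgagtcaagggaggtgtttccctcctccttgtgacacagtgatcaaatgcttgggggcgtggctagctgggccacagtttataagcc
Cmpk2, chr12:26469035-26469214, plus strand: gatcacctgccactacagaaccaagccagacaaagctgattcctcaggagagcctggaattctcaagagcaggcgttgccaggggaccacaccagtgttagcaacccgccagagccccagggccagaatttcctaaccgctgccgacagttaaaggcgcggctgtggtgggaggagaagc
Bst2, chr8:71537473-71537652, minus strand: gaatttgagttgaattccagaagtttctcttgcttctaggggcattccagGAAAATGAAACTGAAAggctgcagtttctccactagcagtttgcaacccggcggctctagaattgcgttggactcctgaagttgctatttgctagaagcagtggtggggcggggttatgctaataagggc
Ifitm2, chr7:140955962-140956141, minus strand: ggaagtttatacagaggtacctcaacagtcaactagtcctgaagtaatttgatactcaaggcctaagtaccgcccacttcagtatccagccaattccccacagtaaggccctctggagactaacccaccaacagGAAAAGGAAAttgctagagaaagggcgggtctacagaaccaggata
Ifitm3, chr7:141010716-141010742, minus strand: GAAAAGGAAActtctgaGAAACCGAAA

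Libraries held from 26853488 to 38076753 counts. Levels are given as CPM, the counts of a gene per 1000000 counts of its library. The E861A library of replicate 1 stood apart in pituitary hormone transcripts, whose summed level was 439 CPM there against 1.3 to 3.31 CPM in the other 5 libraries, so values without it are given below. Brain identity was checked with neuron markers (4058 to 4282 CPM in sum) and oligodendrocyte markers (4253 to 4617 CPM). *Adar* RNA was 161 ± 8.98 CPM (SD, n = 3) in E861A and 150 ± 29.9 CPM in WT, and *Ifih1* retained 38 to 56 counts per library. Neither was called (edgeR quasi-likelihood test, adjusted p of 0.822 and, with the lower filter described next, 0.665).

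*Bst2*, *Rsad2* and *Ifitm3* were higher in E861A brain, by 3.24, 2.49 and 1.85 times on mean CPM, and *Mx1*, at a very low level, by 4.39 times. *Cmpk2*, *Ifitm1*, *Ifitm2* and *Apobec3* were not called, and *Mx2* fell short of the threshold. The filter named in the study's methods, a CPM of 2 or more throughout the 3 libraries of either genotype, retained 13649 genes and 6 of the 9 restriction factors. Genes with an adjusted p under 0.05 are referred to as called. Of the 6, 3 were called and all 3 were higher in E861A, against 0.506% of all genes tested in either direction and 0.41% higher. *Bst2* and *Rsad2* passed this filter only through their E861A libraries, so a gene of their level had to differ to be tested at all. All 9 were therefore also tested with edgeR's own filter on low counts (filterByExpr, 19366 genes), which does not ask for that level. Here 4 of the 9 were called, all higher, against 0.568% of genes in either direction and 0.449% higher. The median log2 fold change of the 9 was 0.73, where that of all genes was 0.0001. For 6 of the 9 genes every E861A library lay above every WT library, as for 7.25% of all genes in this fit. For 1, *Ifitm2*, every E861A library lay below, as for 5.91% of all genes. In whole brain, a change in RNA per cell and a change in the number of cells that express a gene cannot be told apart.

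**Figure D1:**
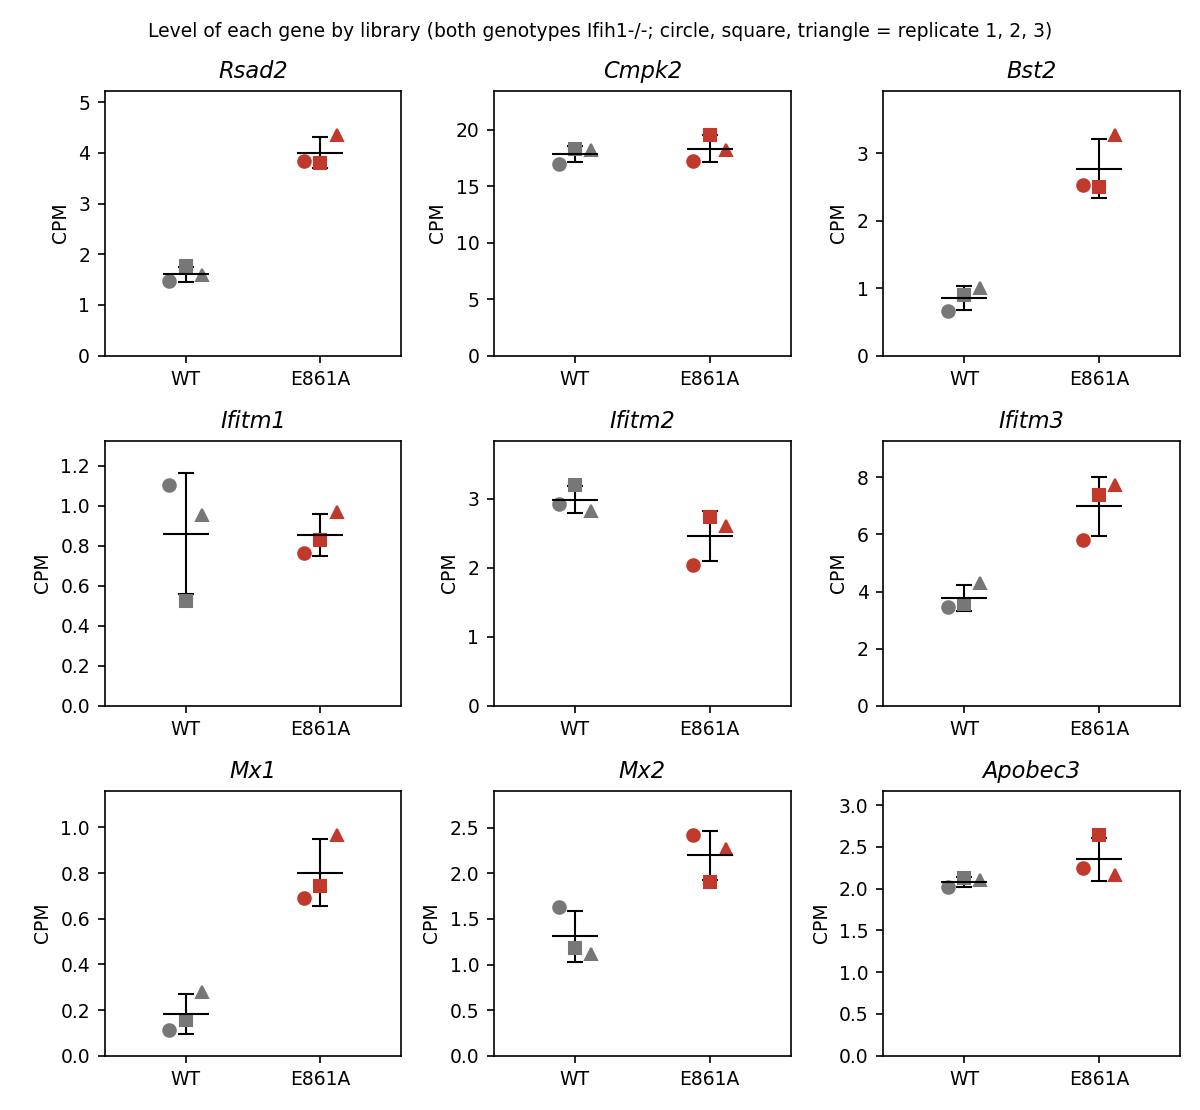
CPM of each of the 9 genes (vertical axis, from 0) in the 3 WT libraries (grey) and the 3 E861A libraries (red), with marker shape giving the replicate number, a horizontal bar for the mean and whiskers for 1 SD. The genotypes are separated for *Rsad2*, *Bst2*, *Ifitm3*, *Mx1* and *Mx2*, narrowly for *Apobec3*, and in the other direction for *Ifitm2*, whereas they overlap for *Cmpk2* and *Ifitm1*.

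Tetherin, the product of *Bst2*, holds budding enveloped virions at the cell surface. *Bst2* (ENSMUSG00000046718; NCBIM37 chromosome 8, 74058163 to 74061336, minus strand) measured 2.53, 2.51 and 3.28 CPM in E861A replicates 1 to 3 and 0.663, 0.893 and 1.01 CPM in WT. Every E861A library exceeded the highest WT library by more than its own distance from the others of its genotype. The log2 fold change was 1.68 ± 0.19 (SE) with an adjusted p of 0.000373, and the adjusted p was 0.000202 with filterByExpr. Without E861A replicate 1, the library with pituitary transcripts, the log2 fold change was 1.75. *Bst2* was called under each of the 14 alternatives in which it could be tested. Most of these kept the CPM filter, which *Bst2* passed only through its E861A libraries.

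Viperin is a radical enzyme that converts CTP into a chain-terminating nucleotide, and CMPK2 is a mitochondrial nucleotide kinase that can supply its substrate. *Rsad2* (ENSMUSG00000020641; chromosome 12, 27127618 to 27141317, minus strand) and *Cmpk2* (ENSMUSG00000020638; chromosome 12, 27154069 to 27164700, plus strand) point away from each other across a gap of 12751 bases with 0 genes between them. *Rsad2* measured 3.84, 3.8 and 4.36 CPM in E861A and 1.47, 1.76 and 1.6 CPM in WT. *Cmpk2* measured 17.2, 19.6 and 18.2 CPM in E861A and 17, 18.3 and 18.2 CPM in WT. *Rsad2* thus separated the genotypes, whereas the *Cmpk2* values overlapped. *Rsad2* rose with a log2 fold change of 1.31 ± 0.14 (SE, adjusted p 0.000245), or 1.35 without E861A replicate 1, and was called under all 14 alternatives that tested it. Most of these kept the CPM filter, which *Rsad2* passed only through its E861A libraries. With filterByExpr its adjusted p was 0.000164. *Cmpk2* gave 0.04 ± 0.07 (adjusted p 0.892), and the 95% confidence interval of its fold change, 0.922 to 1.14 in the filterByExpr fit, lies below that of *Rsad2*, 1.97 to 3.1.

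The difference between these neighbors was measured as a ratio within each library. *Rsad2* reads amounted to 0.223, 0.194 and 0.239 of *Cmpk2* reads in E861A and 0.0862, 0.096 and 0.0878 in WT. The ratio was higher in all 3 E861A libraries than in any WT library, with a log2 difference of 1.28 (exact two-sided permutation test, p = 0.1, the smallest that 3 against 3 libraries allow). With *Cmpk2* nearly level, the ratio restates the difference in *Rsad2* from the same counts and is no separate support. *Cmpk2* was the more abundant transcript of the pair in both genotypes, at 5.58 ± 0.228 CPM per kilobase of exon in WT against 0.371 ± 0.0341 for *Rsad2* (SD, n = 3).

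IFITM proteins sit in endosomal and plasma membranes and hinder fusion of viral envelopes. *Ifitm2*, *Ifitm1* and *Ifitm3* lie in this order on chromosome 7. *Ifitm3* (ENSMUSG00000025492; chromosome 7, 148195485 to 148196669, minus strand) measured 5.82, 7.39 and 7.75 CPM in E861A and 3.46, 3.57 and 4.31 CPM in WT. Its genotypes did not overlap, and E861A replicate 1 was the lowest of the mutant libraries. *Ifitm3* rose with a log2 fold change of 0.89 ± 0.14 (SE, adjusted p 0.00531), and with 1.01 without E861A replicate 1. Without E861A replicate 3 it was 0.81 and no longer called (adjusted p 0.105), the only one of 15 alternatives in which the call was lost.

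*Ifitm2* (ENSMUSG00000060591; chromosome 7, 148140736 to 148141882, minus strand) measured 2.04, 2.73 and 2.61 CPM in E861A and 2.93, 3.2 and 2.83 CPM in WT. Its E861A libraries were all the lower, but by less than the test requires, with a log2 fold change of -0.27 ± 0.15 (SE, adjusted p 0.621). *Ifitm1* (ENSMUSG00000025491; chromosome 7, 148153120 to 148155724, plus strand) measured 0.762, 0.827 and 0.968 CPM in E861A and 1.11, 0.525 and 0.952 CPM in WT, from 20 to 40 counts per library. The genotypes overlapped fully, and its log2 fold change of -0.02 ± 0.27 (filterByExpr, adjusted p 0.995) had a 95% interval of 0.662 to 1.48 as a fold, so a moderate difference in either direction was not detectable at this depth.

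The ratio between these IFITM genes was also taken within each library. *Ifitm3* counts were 2.85, 2.71 and 2.97 times those of *Ifitm2* in E861A libraries and 1.18, 1.11 and 1.52 times in WT libraries. The groups did not overlap, and the log2 difference was 1.17 (exact two-sided permutation test, p = 0.1, the smallest possible). This ratio, too, comes from the counts already tested and is no separate support. Both promoters carry an ISRE match, shown above, before the start site in *Ifitm2* and after it in *Ifitm3*. At most 1.73% of the 75-base strings in the transcripts of these IFITM genes recur exactly in another protein-coding gene. Those genes were predicted ones outside the 9. Only protein-coding transcripts were searched, so pseudogenes without a coding transcript, other genomic copies and inexact matches were not covered. Among 4 further family members, *Ifitm10*, the most abundant, gave a log2 fold change of -0.01 (adjusted p 0.983), *Ifitm7* was not called, and *Ifitm5* and *Ifitm6* had 0 to 5 counts.

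**Figure D2:**
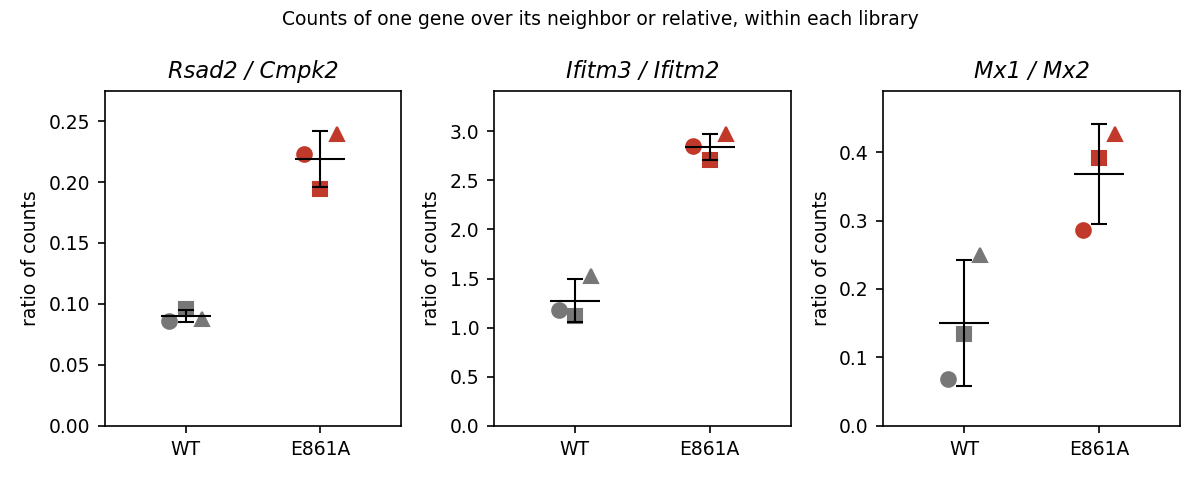
Counts of *Rsad2* over *Cmpk2*, *Ifitm3* over *Ifitm2* and *Mx1* over *Mx2* within each library (vertical axes, from 0; WT grey, E861A red; bar, mean; whiskers, 1 SD; n = 3). All E861A ratios lie above all WT ratios in the 3 panels, closest for *Mx1* over *Mx2*, where WT replicate 3 reaches 0.25 and E861A replicate 1 is at 0.286.

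MX proteins assemble around viral nucleocapsids. *Mx1* (ENSMUSG00000000386; chromosome 16, 97668642 to 97684514, minus strand) had 20, 27 and 26 counts in E861A and 4, 6 and 10 in WT, or 0.693, 0.744 and 0.968 CPM against 0.111, 0.158 and 0.28 CPM. The groups did not overlap, although the level was below the CPM filter in all 6 libraries. *Mx1* rose with a log2 fold change of 2.1 ± 0.36 (SE, filterByExpr, adjusted p 0.00567), the largest estimate among the 9 genes and the least precise, with a 95% interval of 2.55 to 7.22 as a fold. Without E861A replicate 1 it was 2.2 (adjusted p 0.0105), and without E861A replicate 3 it was 1.96 and no longer called (adjusted p 0.0804).

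*Mx2* (ENSMUSG00000023341; chromosome 16, 97757690 to 97782506, plus strand) had 70, 69 and 61 counts in E861A and 59, 45 and 40 in WT. In CPM the mutant libraries, at 2.42, 1.9 and 2.27, lay above the WT libraries, at 1.63, 1.18 and 1.12. The log2 fold change was 0.73 ± 0.19 (SE, filterByExpr), with an unadjusted p of 0.00141 and an adjusted p of 0.157. In the paired fit, with a block for the replicate, the adjusted p was 0.0547, and it was under 0.05 in 2 of 14 alternatives, the likelihood ratio test (0.0313) and the fit without a filter (0.0125). *Mx2* was thus higher in 3 of 3 same-numbered pairs but not called. The *Mx1* to *Mx2* ratio was 0.286, 0.391 and 0.426 in E861A and 0.0678, 0.133 and 0.25 in WT, with p = 0.1 in the same exact permutation test. It again comes from the counts already tested and is no separate support. In all, 73 of the 75-base strings of each transcript are shared by the pair, 2.05% of those of *Mx1* and 3.12% of those of *Mx2*. Of 5 genes of the related dynamin family (*Dnm1*, *Dnm2*, *Dnm3*, *Dnm1l* and *Opa1*), 0 were called in the edgeR quasi-likelihood test or with the other tools run, and 0 had an unadjusted p under 0.05.

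*Apobec3*, which restricts retroviruses, was measured from 58 to 96 counts per library. *Apobec3* (ENSMUSG00000009585; chromosome 15, 79722838 to 79741552, plus strand) was at 2.25, 2.65 and 2.16 CPM in E861A and 2.02, 2.13 and 2.1 CPM in WT. The lowest mutant value lay just above the highest WT value, and E861A replicate 2 was the highest. The log2 fold change of 0.19 ± 0.15 (SE) was not called (adjusted p 0.735), with a 95% interval of 0.893 to 1.44 as a fold (filterByExpr). Of its relatives, *Apobec1*, *Apobec2* and *Apobec4* were tested with filterByExpr and none was called (smallest adjusted p 0.571; 1 gene, *Apobec1*, at an unadjusted p under 0.05).

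**Figure D3:**
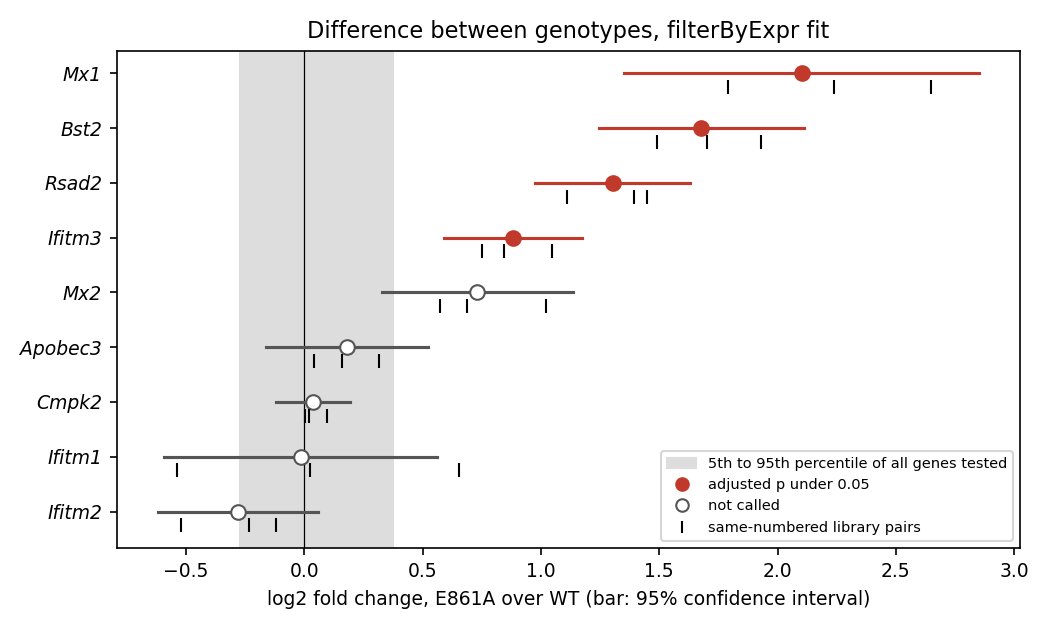
Log2 fold change of E861A over WT for the 9 genes in the filterByExpr fit (points; red, called; open, not called; lines, 95% confidence interval), with ticks for the log2 ratio of each same-numbered library pair and a band from the 5th to the 95th percentile of 19366 genes, -0.27 to 0.38. *Mx1*, *Bst2*, *Rsad2* and *Ifitm3* lie to the right of the band with their whole intervals, and *Mx2* has an interval that begins inside it.

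The order of abundance was read per length of exon. In WT brain *Cmpk2* (5.58 ± 0.228 CPM per kilobase) and *Ifitm3* (5.58 ± 0.687; SD, n = 3) led and did not differ beyond their spread, followed by *Ifitm2* at 4.59 ± 0.298. *Bst2* was at 1.12 ± 0.23, *Ifitm1* at 0.787 ± 0.275 and *Apobec3* at 0.787 ± 0.0216, and the ranges of *Bst2* and *Ifitm1* and of *Ifitm1* and *Apobec3* overlapped. *Mx2* (0.542 ± 0.115), *Rsad2* (0.371 ± 0.0341) and *Mx1* (0.0501 ± 0.024) closed the order, with *Mx2* overlapping *Ifitm1* but neither *Apobec3* nor *Rsad2*. In E861A brain *Ifitm3* stood first at 10.3 ± 1.51 and *Cmpk2* followed at 5.73 ± 0.369, with no overlap of their libraries. *Ifitm2* (3.78 ± 0.561) and *Bst2* (3.63 ± 0.574) overlapped, as did *Rsad2* (0.925 ± 0.0713), *Mx2* (0.91 ± 0.111), *Apobec3* (0.889 ± 0.0975) and *Ifitm1* (0.779 ± 0.0964). *Mx1* remained last at 0.22 ± 0.0402.

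The rest of the pathway was read from lists of genes. Of 36 other restriction factors and interferon-induced antiviral genes, 33 were tested with filterByExpr. Of these, 19 were called, all higher, against 0.568% of all genes in either direction and 0.449% higher. The median log2 fold change of the 33 was 0.93 against 0.0001 for all genes. *Ch25h* and *Nos2*, at 2 to 14 and 4 to 20 counts per library, were not tested in that fit and were lower in E861A on mean CPM. The CPM filter retained 22, of which 10 were called, all higher, against 0.506% of all genes in either direction and 0.41% higher. Of these 22, 6 passed that filter only through their E861A libraries, among them 5 of the 10 called, *Oasl2* and *Iigp1* included. All 10 were also called with filterByExpr. The smallest adjusted p in the CPM-filtered fit belonged to *Ifit1*, which binds viral RNA caps (log2 fold change 2, adjusted p 5.87e-07), *Ifit3*, its partner (1.64, 1.27e-05), *Oasl2* of the OAS family (1.75, 1.27e-05), *Iigp1*, a GTPase that acts on parasite vacuoles (2.12, 1.27e-05), and *Gbp3*, a guanylate-binding protein (1.42, 0.000139). The log2 fold change of *Bst2*, 1.68, lay between those of these 5 genes, and that of *Rsad2*, 1.31, below them. *Samhd1*, which depletes nucleotides, gave 0.11 (adjusted p 0.662) and *Zc3hav1*, which binds viral RNA, 0.35 (adjusted p 0.209).

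Upstream of these genes, 2 of 16 interferon signaling genes were called with filterByExpr, both higher, against 0.449% of all genes called higher. They were *Usp18*, a feedback inhibitor (log2 fold change 1.8, adjusted p 0.000164), and *Irf7*, a transcription factor that is itself interferon-induced (1.25, adjusted p 0.0129). Both were also called among the 13 genes that passed the CPM filter, which they passed only through their E861A libraries. In the CPM-filtered fit the number called was 1 without E861A replicate 3 and 1 without WT replicate 3. In that fit *Irf9* gave 0.37 (adjusted p 0.238) and *Stat2* 0.24 (adjusted p 0.345). With the replicates paired by a block *Irf9* was called as well (adjusted p 0.0466), which made 3 genes. The receptor chains *Ifnar1* and *Ifnar2* gave -0.02 and 0.05, and *Jak1* and *Tyk2* gave 0.01 and 0.06, with adjusted p of 0.874 to 0.975. Proteins known to act with viperin were tested as 7 genes (*Ciao1*, *Fam96a*, *Irak1*, *Traf6*, *Hadha*, *Hadhb* and *Fdps*), and 0 were called, with 0 at an unadjusted p under 0.05 and 0 called by the other tools run.

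**Figure D4:**
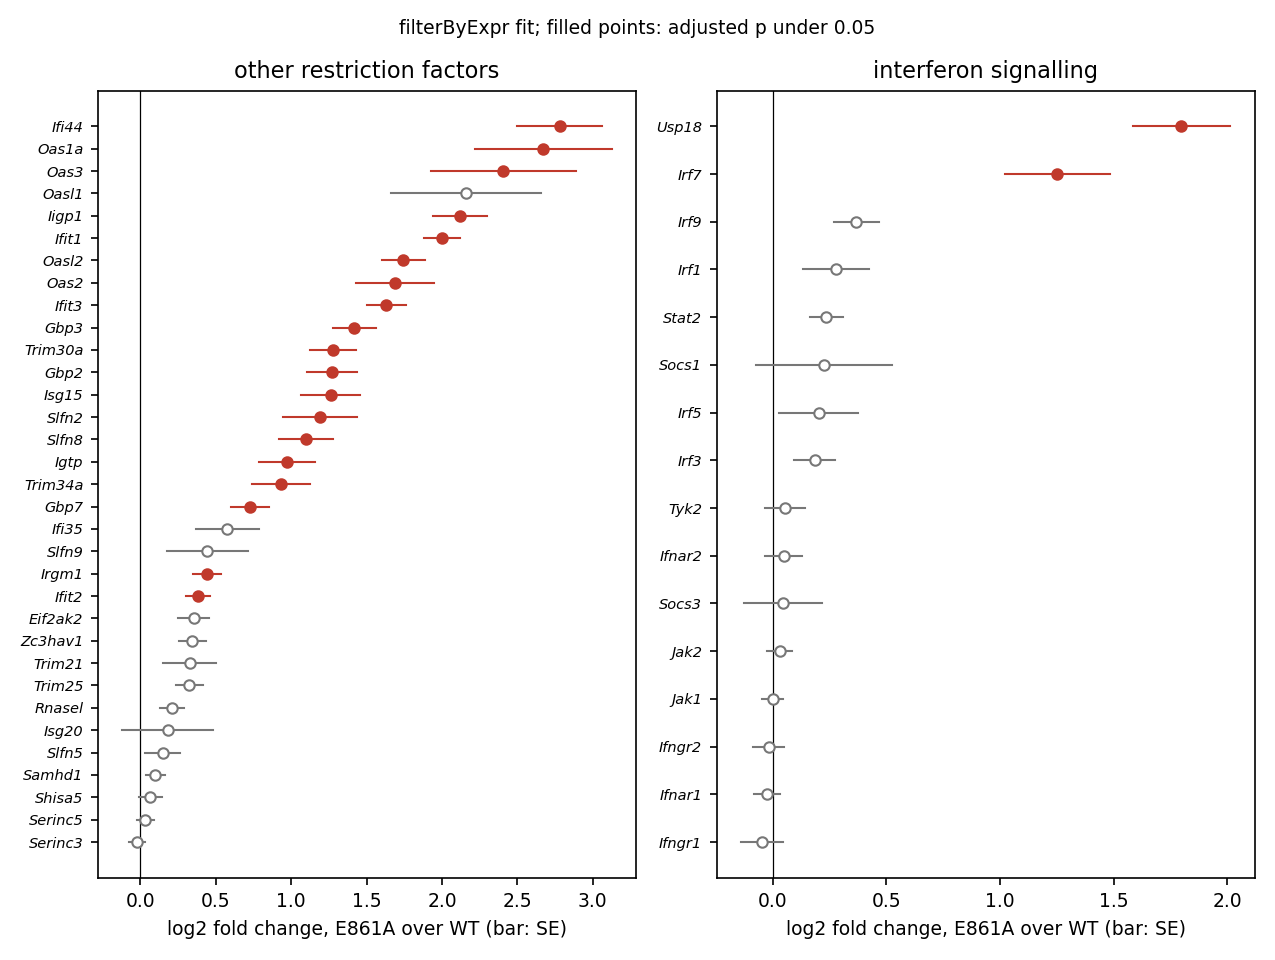
Log2 fold change of E861A over WT in the filterByExpr fit (points; whiskers, 1 SE) for 33 other restriction factors and interferon-induced genes (left) and 16 interferon signaling genes (right), with called genes filled. Called genes are 19 on the left and 2 on the right, all above 0, and the receptor and kinase genes lie near 0.

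Endothelial and other vascular cells and meningeal cells express IFITM genes, so their markers are given beside these results. In the CPM-filtered fit, 1230 of all 13649 genes had an unadjusted p under 0.05. Summed endothelial markers were 153 to 186 CPM in E861A and 190 to 229 CPM in WT, with 0 of 11 called in the CPM-filtered fit and 1 (*Flt1*, lower) with filterByExpr. All 11 were lower in the CPM-filtered fit (median log2 fold change -0.3), 6 at an unadjusted p under 0.05. Mural markers were 94.6 to 106 CPM against 117 to 149 CPM, with 0 of 6 called and, with filterByExpr, 2 of 7 (*Rgs5* and *Abcc9*, lower). In the CPM-filtered fit all 6 were lower (median -0.41), 4 at an unadjusted p under 0.05. Meningeal fibroblast markers were 156 to 176 CPM against 129 to 145 CPM, with 2 of 7 called (*Col1a2* and *Col3a1*, higher) and, with filterByExpr, 3 of 7 (*Col1a1* in addition). All 7 were higher in the CPM-filtered fit (median 0.31), 4 at an unadjusted p under 0.05.

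Summed microglial markers overlapped at 198 to 208 CPM in E861A and 206 to 214 CPM in WT, with 0 of 11 called and 1 at an unadjusted p under 0.05. Peripheral myeloid markers were 15.6 to 24.4 CPM against 11.4 to 14.2 CPM, with 0 of 2 called. With filterByExpr 0 of 5 were called, though all 5 were higher and 3 had an unadjusted p under 0.05. The myeloid sum was highest in E861A replicate 3, where *S100a8* and *S100a9* had 94 and 111 counts. Without this library the calls of *Ifitm3* and *Mx1* were lost, at log2 fold changes of 0.81 and 1.96. The adjusted p of *Bst2* and *Rsad2* also rose without it, to 0.0088 and 0.00774 (edgeR quasi-likelihood test, CPM-filtered fit). Choroid plexus markers were 227 to 338 CPM against 396 to 417 CPM (0 of 7 called), astrocyte markers 5247 to 5470 CPM against 4601 to 4829 CPM (0 of 7), and neuron markers 4058 to 4171 CPM against 4197 to 4282 CPM (0 of 7). Abundant genes weigh most in these sums. *Slc1a2* alone averaged 4165 CPM in E861A and 3630 CPM in WT, *Snap25* of neurons 1737 and 1785 CPM, and *Ttr* of choroid plexus 248 and 355 CPM. Median log2 fold changes in the CPM-filtered fit were 0.04 for astrocyte, -0.05 for neuron and -0.23 for choroid plexus markers. Ependymal, oligodendrocyte, lymphocyte, blood and pituitary sums overlapped between genotypes with 0 called, and lymphocyte markers summed to no more than 4.78 CPM. With the replicates paired by a block, further marker genes were called. In the CPM-filtered fit these were *Rgs5* and *Abcc9* of the mural list, *Ttr* of choroid plexus (adjusted p 0.0241) and *Slc1a2* of astrocytes (adjusted p 0.0374). With filterByExpr, *Dcn* of meningeal fibroblasts, *S100a8* and *S100a9* of peripheral myeloid cells and *Gh* of pituitary were added. No matched marker was at 0 in all 6 libraries, and the part of these cell types in the results was not tested.

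**Figure D5:**
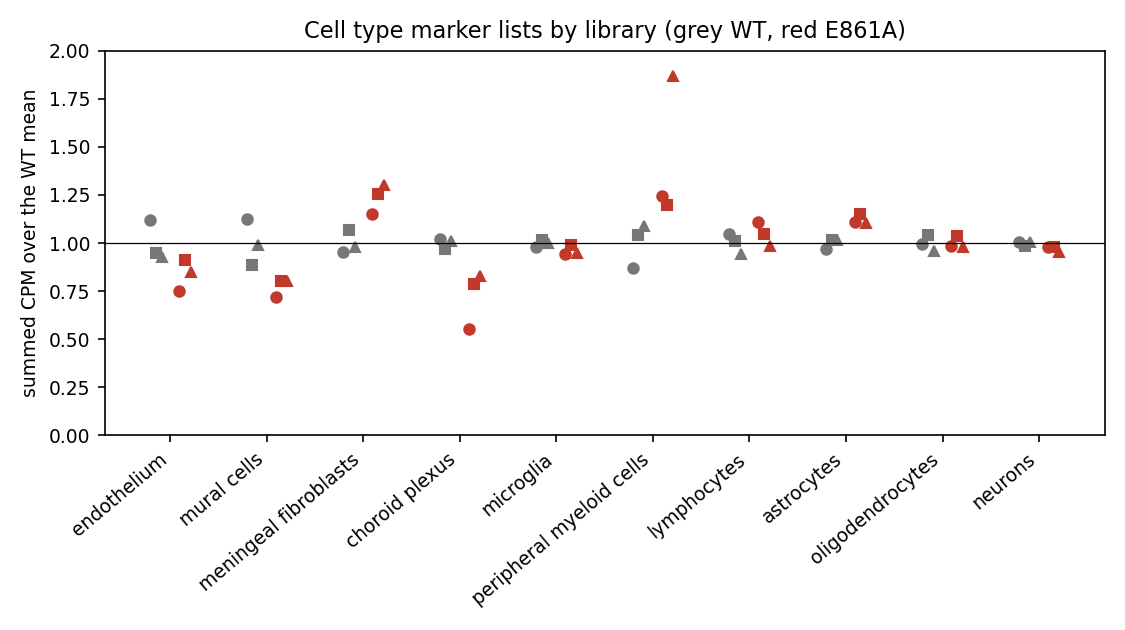
Summed CPM of 10 marker lists in each library, divided by the mean of the 3 WT libraries (vertical axis, from 0; WT grey, E861A red; shape, replicate number). E861A libraries lie below all WT libraries for endothelium, mural cells, choroid plexus and neurons, above them for meningeal fibroblasts, peripheral myeloid cells and astrocytes, and overlap with them for microglia, lymphocytes and oligodendrocytes. Abundant genes weigh most in these sums, such as *Slc1a2* in the astrocyte list.

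The transcripts whose pattern was most like each gene were sought among 19357 others, by Pearson correlation of log2 CPM across the 6 libraries. *Rsad2* was followed most closely by *Insm2* and *Phf11d*, *Bst2* by *Gm14322* and *Ifi47*, *Mx1* by *Gm9955* and *Oas3*, and *Mx2* by *Mndal* and *Chadl*. The closest to *Ifitm3* were *Ctnna2* and *Slc7a11*, and to *Ifitm2* *Abcb1a* and *Lims2*. *Cmpk2* was matched by *Klhl4* and *Pitpnc1*, *Ifitm1* by *Foxd3* and *Adcy8*, and *Apobec3* by *Gm15850* and *Best1*. These correlations ran from 0.99 to 0.999 for called and uncalled genes alike, the points share libraries and depth, and with 6 points among so many transcripts they are descriptions only.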

How the data were processed

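Total RNA from whole brain was depleted of ribosomal RNA, and stranded libraries were read as 75-base pairs. Per the labels and the study's methods, the authors trimmed reads (Trimmomatic 0.36), aligned them to NCBIM37 (mm9) with STAR 2.5.2a and deposited raw counts per gene. The strand setting of the counting was not given in the sources used here. No other annotated gene overlaps any of the 9. The authors' CPM tables and their table of fold changes and false discovery rates were not used.

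Gene coordinates are from GENCODE vM1 (NCBIM37), in which all 37310 identifiers were found. Promoters are from RefSeq on GRCm38.p6, and the builds were not combined. Counts were tested in R 4.3.3 with edgeR 4.0.16 by the quasi-likelihood test with TMM scaling, no covariates and Benjamini-Hochberg adjustment over all genes of a fit. Values of *Ifitm1*, *Mx1* and *Mx2* are from the filterByExpr fit, those of the other 6 from the CPM-filtered fit unless stated. Confidence intervals are unadjusted. Scripts were checked on simulated data. DESeq2 1.42.0 and limma-voom 3.58.1 were alternatives. CPM was taken from column totals. Per the labels, replicates are independent biological samples.

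Genes named are the 9, the targeted genes, the paralogs and partners, the 5 and 4 listed genes of smallest adjusted p, and the 2 transcripts most like each gene (log2 CPM with a prior count of 2). Further names (*Samhd1*, *Zc3hav1*, *Ch25h*, *Nos2*, the receptors and kinases, and single marker genes) were chosen after their values were seen. The 9 genes and all lists were chosen with earlier results of these data known. Of the listed symbols, *Cia2a*, *Marchf8*, *Hbb-b1*, *Hbb-b2* and *Lhb* were not matched. Some listed genes are not reported here. Replicate numbers are shared by the genotypes in the titles. Deviations from genotype means correlated at 0.225, 0.336 and 0.116 across 13649 genes for same-numbered libraries. No source says what a number stands for. The main fits, with either filter, leave this pairing out. It enters only in the fits with a replicate block and in the ratios of same-numbered libraries.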

Additional observations from a re-analysis of the deposited data

How the results depend on the processing

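The 3 calls among the restriction factors (*Bst2*, *Rsad2* and *Ifitm3*) held under other scaling, DESeq2, limma-voom and the likelihood ratio test. Without a filter 5 were called, *Mx1* and *Mx2* being added. That fit also called more genes over all, 376 of 29282 against 69 of 13649 in the CPM-filtered fit. A filter that asks for a CPM of 2 in each of the 6 libraries gave 1, because *Bst2* and *Rsad2* were no longer tested. With filterByExpr, omission of single libraries gave 2 to 4 calls, the lowest without E861A replicate 3. The same settings gave 22 (no filter) and 5 (each of 6 libraries) calls among the other restriction factors, and a mean CPM of at least 1 gave 16. The filter on each of the 6 libraries left 0 interferon signaling genes called, because *Usp18* and *Irf7* were no longer tested, and omission of single libraries gave 1 to 2. These filters change which genes are tested.

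With the replicate block, 3 of the genes were called in the CPM-filtered fit and 4 with filterByExpr, as without it, and no call among the 9 changed. It raised the calls over all genes from 69 to 158 in the CPM-filtered fit and from 110 to 233 with filterByExpr. It also added *Irf9* and the marker genes named above. *Ifitm1* changed sign near 0, with log2 fold changes of 0.0427 in limma-voom, 0.0123 with the replicate block and -0.267 to 0.195 when single libraries were omitted. *Cmpk2* ranged from -0.0195, without E861A replicate 2, to 0.0985. The directions of the other 7 held in all alternatives that tested them. Marker lists with separated sums numbered 7, with TMM-scaled CPM too, and 7 to 9 when single libraries were omitted. With 3 libraries per genotype, differences smaller than the intervals given could have been missed, above all for *Ifitm1* and *Mx2*.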
